A study of Mus musculus with 25 samples.

Results

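The genes described here were 97 microRNA genes whose RNA was counted in mouse sperm, outside the miR-10, miR-99/100, miR-125, miR-34, miR-449 and miR-200 families. They were all genes of the count table with a symbol of a numbered or let-7 microRNA gene, kept when the largest of 5 condition counts was at least 20 and every estimate was marked as valid. The table held 24358 genes, of which 1157 had such a symbol. Of these, 21 belonged to the families left out, 1036 stayed under 20 counts in every condition, 213 of them listed at 0 throughout, and 3 had a failed estimate (Mir21a, Mir301 and Mir8115). Because the limit was set on the counts themselves, a gene that passed it in 1 condition alone, as 19 did, had to be lower in the others, and every count of members below is a description and supports nothing. Just inside the limit were Mir423 at 20.2, Mir1247 at 20.2 and Mir27a at 20.5 counts, and just outside were Mir6920 at 19.0, Mir196b at 18.6 and Mirlet7c-1 at 18.5.

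The sperm came from the cauda epididymis of 14-week-old males of 2 inbred strains, and the RNA of 5 mice was sequenced for each of 5 conditions. In C57BL/6J these were sons of dams given corn oil (C57.CTL.F1), sons of dams given the plasticizer bis(2-ethylhexyl)phthalate (DEHP) at 300 mg/kg/day in corn oil (C57.D300.F1), and the next generation, sired by males exposed in the womb (C57.D300.F2). In FVB/N they were sons of vehicle-treated dams (FVB.CTL.F1) and of DEHP-treated dams (FVB.D300.F1). Dams were dosed by mouth from embryonic day 9 to 19. The labels name no engineered allele in either strain. The first-generation C57BL/6J conditions came from 10 re-analysed libraries while the other 3 conditions came from 15 newly made ones. A comparison between these sets of libraries therefore carries both the library set and the strain or generation, which cannot be told apart, and there was no second-generation control.

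Each gene had 1 value in each condition, an estimated fragment count that Cuffdiff had pooled over 5 libraries and scaled between conditions, together with a variance from its count model. No value of a single library was in the table used here. Differences were therefore not tested: no p-value was computed, "model SD" is the square root of that variance, and a member was counted as different when its log2 ratio, taken after adding 1 to both counts, was at least 2 and the higher of the compared counts was at least 20. A second limit of 1 was also applied. In each comparison the share of all genes past the same limit is given beside the members' count.

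A microRNA gene is transcribed as a long precursor, from which Drosha with Dgcr8 cuts a hairpin in the nucleus and Dicer1 cuts a short duplex in the cytoplasm. One strand is loaded on an Argonaute protein, and its bases 2 to 8, the seed, select the messenger RNAs that are repressed. Spermatozoa are transcriptionally silent, and the microRNAs they carry are known to come from spermatogenesis in the testis and from vesicles taken up during passage through the epididymis. The library protocol fragmented and end-repaired total RNA, so a count of a microRNA gene may hold mature strands, hairpins and longer transcripts over the same bases, and both arms together.

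Of the 97 members, 86 had an entry with sequence in RefSeq (GRCm38.p6) and 85 a mature sequence there, 144 mature sequences in all with lengths from 19 to 26 bases and 135 different seeds. The sequences below are written 5′ to 3′ with the seed in capitals. The first set holds members with the most counts and those that differed most between conditions.
miR-6240: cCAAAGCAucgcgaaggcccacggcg
miR-6236: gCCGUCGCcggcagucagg
miR-5103: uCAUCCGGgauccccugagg
miR-191-5p: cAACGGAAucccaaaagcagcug
miR-22-3p: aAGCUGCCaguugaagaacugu
miR-192-5p: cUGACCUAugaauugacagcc
miR-690: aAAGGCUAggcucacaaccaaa
miR-127-3p: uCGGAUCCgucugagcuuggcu
miR-184-3p: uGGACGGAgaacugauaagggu

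The second set holds members that share a seed, which were counted apart because they lie at separate loci. Among the 85 members with a mature sequence in RefSeq, 7 of the 135 seeds were shared by at least 2 members, and 12 members shared one.
let-7d-5p: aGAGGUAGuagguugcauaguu
let-7g-5p: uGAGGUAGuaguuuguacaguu
let-7i-5p: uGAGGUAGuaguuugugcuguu
miR-30a-5p: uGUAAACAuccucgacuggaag
miR-30c-5p: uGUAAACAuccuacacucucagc
miR-30e-5p: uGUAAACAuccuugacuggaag
miR-27a-3p: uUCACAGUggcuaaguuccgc
miR-27b-3p: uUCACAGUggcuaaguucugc
miR-148a-3p: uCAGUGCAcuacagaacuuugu
miR-148b-3p: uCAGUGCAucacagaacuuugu
miR-25-3p: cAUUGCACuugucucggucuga
miR-92a-3p: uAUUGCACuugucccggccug

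The third set holds members from neighbouring genes whose seeds differ. The first 3 come from the Mir182, Mir183 and Mir96 cluster and the other 5 from the X-linked testis cluster.
miR-182-5p: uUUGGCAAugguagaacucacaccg
miR-183-5p: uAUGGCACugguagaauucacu
miR-96-5p: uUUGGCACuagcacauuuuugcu
miR-470-5p: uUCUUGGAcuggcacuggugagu
miR-741-3p: uGAGAGAUgccauucuauguaga
miR-743b-3p: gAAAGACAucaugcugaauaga
miR-871-3p: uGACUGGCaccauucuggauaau
miR-881-3p: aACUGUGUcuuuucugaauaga

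Together the members held 44619, 52655, 61143, 57362 and 97539 counts over the 5 conditions, in the order in which they were introduced, which is kept for every set of 5 values below. These were 0.533, 0.680, 0.894, 0.774 and 1.25% of all counts. Most of this lay in 4 genes, Mir6240, Mir6236, Mir5099 and Mir5103, which made up 57.5, 67.6, 69.0, 86.8 and 89.4% of the members' counts. The other 93 members summed to 18971, 17035, 18961, 7551 and 10314, so that without those 4 genes the 2 FVB/N conditions were the lowest. The median member count was 36.5, 43.2, 53.1, 17 and 22.4.

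Mir6240 (chr5:114851948-114852064, plus strand, GRCm38) had 10289, 17938, 16262, 18306 and 31539.6 counts. Mir6236 (chr9:110281287-110281409, plus strand) had 3383, 6937, 8194, 16221 and 34245, and its count in FVB.D300.F1 was the highest of any member. Its model SD was 1586, 3002, 3267, 10734 and 46682. Mir5099 (chr12:36816205-36816278, plus strand) had 4682, 2685, 4923, 13007 and 17016. All of these lie outside other annotated genes on their strand and were higher in both FVB/N conditions than in the C57BL/6J conditions. Whether their reads came from mature microRNAs or from other RNAs with a like sequence was not tested. Mir5103 (chr1:34433121-34433199, minus strand), in an exon of the noncoding gene Gm37233, had 7293, 8059, 12804, 2277 and 4424 and was lower in both FVB/N conditions. Per 100 bases of gene, the leading member was Mir5103 in C57.CTL.F1 (9231 counts) and in C57.D300.F2 (16207), Mir6240 in C57.D300.F1 (15332), Mir5099 in FVB.CTL.F1 (17577) and Mir6236 in FVB.D300.F1 (27842).

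Mir191 (chr9:108568319-108568392, plus strand), in an exon of 4833445I07Rik and the source of a microRNA found in many tissues and in sperm, had 2856, 3209, 4042, 361 and 478 counts, with a model SD of 1155, 1166, 1334, 86.1 and 116. Mir143, whose product is abundant in smooth muscle, had 2848, 2295, 3214, 335 and 435. Mir22 (chr11:75463716-75463810, plus strand), within exons of its host Mir22hg and of Tlcd2, had 1978, 1621, 1077, 379 and 471. In each of these the lowest C57BL/6J count was above the highest FVB/N count. Mir677, in an intron of the ATP synthase gene Atp5b, went the other way with 892, 803, 702, 1496 and 1898, as did Mir3470a, with 357, 211, 232, 459.8 and 591. Mir1983 had 549, 906, 1126, 1106 and 1359.6 counts and Mir3068 had 287, 514, 379.8, 199.7 and 358, and for both the strains overlapped. The remaining members among the 15 with the highest mean count were Mir192 (chr19:6264844-6264932, plus strand), Mir148a, Mir690 and Mir150, described with the comparisons below.

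**Figure D1:**
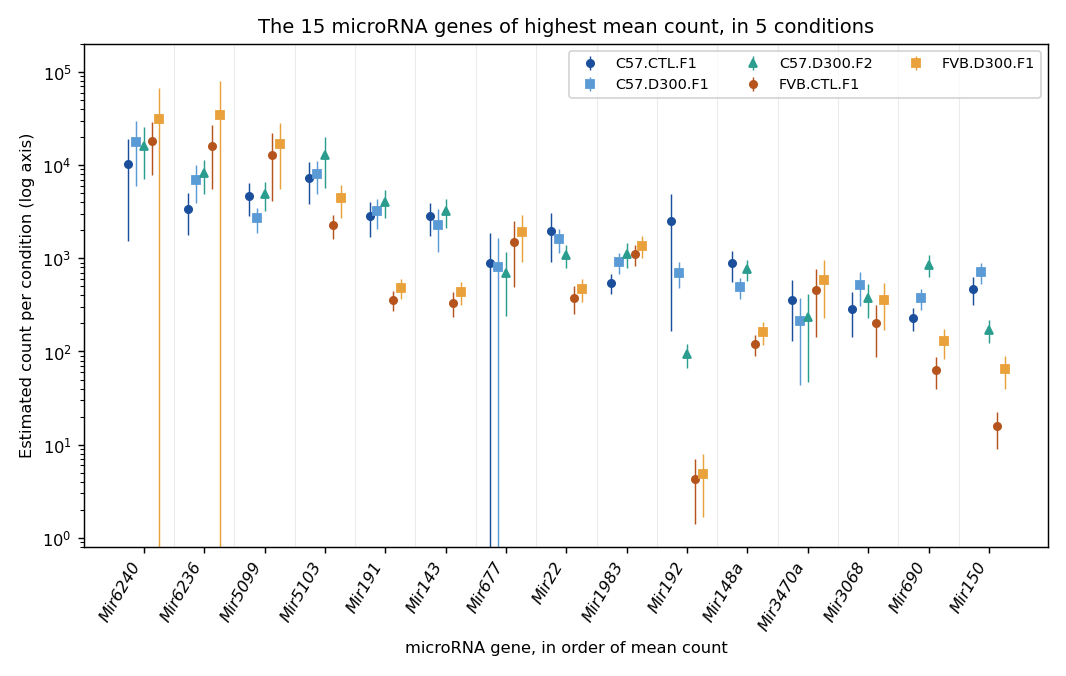
Estimated counts (log axis) of the 15 members with the highest mean count, 1 point for each of the 5 conditions with bars of the model SD, where a bar cut at the lower edge reaches 0 or below. Mir6240, Mir6236 and Mir5099 lie highest in the FVB/N conditions, whereas Mir192 goes from 2535 in C57.CTL.F1 to 4.23 in FVB.CTL.F1.

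The range of counts between conditions was taken for the members only, with no value over all genes beside it. With counts under 3 set to 3, the highest count was at least 10 times the lowest in 26 members and less than 3 times in 23, with a median of 5.46, and 36 members reached 20 counts in all 5 conditions. The highest of the 5 values was in C57.D300.F2 for 41 members, in FVB.D300.F1 for 22, in C57.CTL.F1 for 16, in C57.D300.F1 for 16 and in FVB.CTL.F1 for 2. FVB.CTL.F1 held the lowest value of 54 members. How all genes divide by highest and lowest condition was not counted, so these numbers describe the members only. All 3 C57BL/6J values lay above both FVB/N values in 53 members (32.6% of the 16192 genes with at least 20 counts did so) and below both in 19 (30.2% of all).

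Other RNAs of the same conditions differed as well. Summed counts of all genes ranged from 6836200 to 8376260. The 10 sperm and spermatid marker genes summed to 93591, 79034, 31686, 7494 and 8995 counts, none was listed at 0, and all 10 were lower by at least 2 log2 units in vehicle FVB/N than in vehicle C57BL/6J. The 12 liver markers summed to 286245, 252730.0, 9708, 3711 and 3101, and the 6 seminal vesicle markers to 224351, 73.8, 510.4, 324 and 207. The 9 epididymal epithelium markers with a valid estimate summed to 24249.6, 28382, 30703, 37482 and 91429, the 6 smooth muscle markers to 18834, 10815, 8310.5, 12424 and 8390.2 and the 8 blood markers to 2250.2, 1837, 2390.4, 1219.5 and 4894, of which Hba-a1 was under 1 count in all conditions. In bulk RNA, fewer cells of a type and less RNA per cell cannot be told apart, and the part of these differences in the microRNA counts was not tested.

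Without DEHP, the comparison asks how far the microRNA content of sperm differs between the strains, and more members were lower in FVB/N than were higher. Of 78 members with at least 20 counts in FVB.CTL.F1 or C57.CTL.F1, 29 were lower in FVB/N by at least 2 log2 units (9.04% of all genes) and 5 were higher (1.25%). At 1 log2 unit, 44 were lower (18.4%) and 15 higher (6.56%). Scaling the conditions to equal summed microRNA counts gave 20 lower and 13 higher by at least 2. The median log2 ratio of the members was -1.27, and -1.31 with counts under 3 set to 3, against -0.032 over all genes. The difference exceeded the model SD of the difference in 33 members, a share close to that of all genes (41.8%). Of the 33 members, 28 were lower in FVB/N. The 11 tested genes of the microRNA families left out had a median of -3.14, and the 110 tested small nucleolar and Cajal body RNA genes, other short noncoding RNAs, had a median of 0.41.

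The lowest ratios among members with at least 100 counts were those of Mir192, Mir741 and Mir27b. Mir192, known as a liver and intestinal microRNA, had 2535, 698, 93, 4.23 and 4.83 counts, with a strain log2 ratio without DEHP of -8.92, but its model SD in C57.CTL.F1 was 2368. The study itself had picked Mir192 from these samples, so its direction is not independent evidence. Mir741 (chrX:66796805-66796875, minus strand), of the X-linked testis cluster, had 108 counts in C57BL/6J without DEHP and was listed at 0 in the FVB/N counterpart. Mir27b (chr13:63300712-63300784, plus strand), in an exon of 2010111I01Rik and opposite Fancc, had 409.9, 313, 400.5, 3.14 and 7.56 counts, with a model SD of 265, 163, 184, 10.3 and 19.9 and a strain log2 ratio of -6.63. Both FVB/N values of Mir27b were far below the 3 C57BL/6J values, which lay close to one another. Its neighbours Mir23b and Mir24-1 stayed under 20 counts and did not share this difference. Mir23b had 1.39, 0.495, 0.912, 5.87 and 10.6 counts, higher in FVB/N, and Mir24-1 had at most 0.486.

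Other abundant members were also lower in FVB.CTL.F1. The log2 ratio was -2.98 for Mir191, -3.08 for Mir143, -2.88 for Mir148a, -2.90 for Mir182, -2.38 for Mir22 and -1.69 for Mir30a. Mir148a had 888, 489, 768, 119 and 162 counts and Mir30a had 376, 287, 496, 116 and 148. For both, the 2 FVB/N values lay below all C57BL/6J values. Members of the sperm and germ cell list without such a difference included Mir29a, Mir320 and Mir30c-2: Mir29a had 85.2, 117, 112, 89.6 and 97.2 counts, Mir320 had 9.62, 13.3, 33.9, 28.4 and 49.8 and Mir30c-2 had 3.41, 6.8, 10.6, 11.8 and 20.5.

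The 5 members higher in FVB.CTL.F1 by at least 2 log2 units were Mir6236 (2.26), Mir664 (2.43), Mir8114 (3.62), Mir2137 (3.81) and Mir6238 (3.85). Mir6236 and Mir6238 exceeded the model SD of the difference and the other 3 did not. Mir8114, in an exon of the glutamine synthetase gene Glul, had 28.4, 7.37, 4.46, 360.1 and 519 counts with a model SD in FVB/N of 327 without and 952 with DEHP. Mir664 overlaps the snoRNA Snora36b and had 31.5, 60.2, 57.2, 174 and 281 counts. Mir2137 and Mir6238, named here after their values were seen, had 3.78, 4.61, 19, 66 and 91.4 and 0.77, 6.22, 3.35, 24.5 and 51.5.

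**Figure D2:**
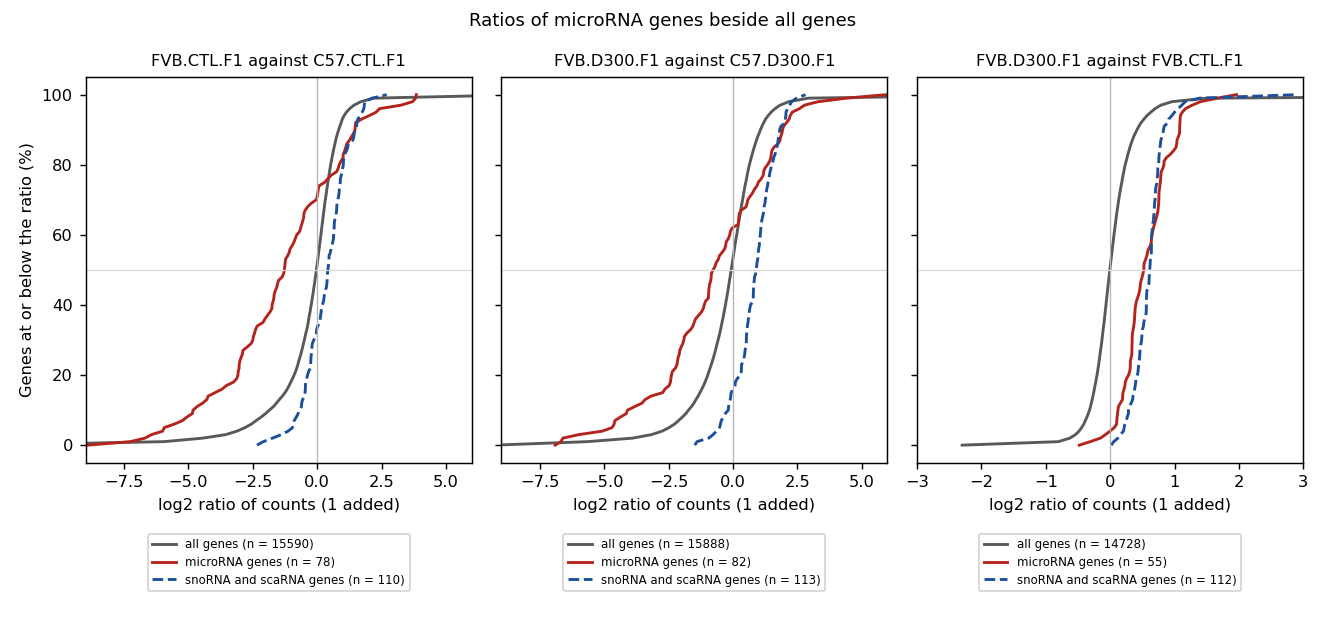
Cumulative percentage of genes (vertical axis) at or below each log2 ratio (horizontal axis) for all genes, the microRNA genes and the small nucleolar and Cajal body RNA genes, in 3 comparisons. At the median, the microRNA curve lies to the left of all genes in both strain comparisons (medians -1.27 and -0.77). There it lies to the right for FVB.D300.F1 over FVB.CTL.F1 (median 0.52, which was -0.21 with conditions scaled to equal summed microRNA counts). In the strain comparisons the curves cross. By at least 1 log2 unit, 15 of 78 members were higher in FVB/N without DEHP (6.56% of all genes) and 20 of 82 with DEHP (11.3%).

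The strain comparison could also be made within the newly made libraries, where C57.D300.F2 stood for C57BL/6J and generation and exposure differed too. For FVB.CTL.F1 over C57.D300.F2, 36 of 84 members were lower in FVB/N by at least 2 log2 units (2.44% of all genes) and 3 were higher (0.682%). The median was -1.72 against 0.019 over all genes and 0.39 over the snoRNA and scaRNA genes. For FVB.D300.F1 over C57.D300.F2, 28 of 88 were lower (1.89%) and 5 higher (1.57%), with a median of -1.21. By at least 1, 54 members were lower (10.3% of all genes) and 10 higher (4.08%) in the first of these comparisons, and 48 lower (9.75%) and 18 higher (6.89%) in the second. The difference exceeded its model SD in 50 (29.6%) and 51 members (33.1%). The members' medians were below 0 within this set too, where strain, generation and exposure cannot be told apart. C57.D300.F2, the C57BL/6J condition here, held the highest of the 5 values of 41 members, a number with no share of all genes beside it. Mir191 had a log2 ratio of -3.48 for FVB.CTL.F1 over C57.D300.F2, Mir27b of -6.60 and Mir182 of -4.14. Mir192, by contrast, was already at 93 counts in C57.D300.F2.

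With DEHP in both strains, the members again lay mostly lower in FVB/N. Of 82 members, 23 were lower by at least 2 log2 units (7.75% of all genes) and 7 higher (2.46%), and the median was -0.77 against -0.07 over all genes. At 1 log2 unit, 34 were lower (19.6%) and 20 higher (11.3%). The difference exceeded its model SD in 40, a share close to that of all genes (48%). With equal summed microRNA counts, 19 were lower and 10 higher by at least 2. The snoRNA and scaRNA genes had a median of 0.90 and the left-out families -2.37. Among members with at least 100 counts, Mir192 (-6.91), Mir871 (-6.64) and Mir741 (-6.59, from a count under 3 in FVB/N) had the lowest log2 ratios. Mir8114 (5.96), Mir5099 (2.66) and Mir6236 (2.30) had the highest, and of these Mir5099 exceeded the model SD of the difference.

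The strain difference was not alike over the members. Registry numbers of microRNAs follow the order of discovery, and those numbered under 1000, with let-7, were set apart from those numbered from 1000 after the values were seen. For FVB.CTL.F1 over C57.CTL.F1 the 53 lower-numbered members had a median of -2.09, with 40 lower and 4 higher by at least 1 log2 unit (18.4% and 6.56% of all genes). The 25 higher-numbered members had a median of 0.36, with 4 lower and 11 higher. With DEHP in both strains the medians were -1.53 over 53 and 1.00 over 29. Against C57.D300.F2, within the new libraries, FVB.CTL.F1 had medians of -2.23 over 55 and 0.17 over 29.

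The median ratio varied less with the gene setting of the members. Of the 97, 28 lay in an exon of another gene on the same strand, 25 in an intron, 5 in a snoRNA or scaRNA exon and 39 in neither. For FVB.CTL.F1 over C57.CTL.F1 the median was -1.25 over 23 exonic members, -1.51 over 20 intronic ones and -1.62 over 30 in neither. It was -0.27 over the 5 in snoRNA or scaRNA exons, which are Mir1843a, Mir1843b, Mir664, Mir1291 and Mir6516. These 5 share bases with Scarna3b, Scarna3a, Snora36b, Snora34 and Gm26083, and their counts may hold fragments of those RNAs. Some mature sequences also occur in other genes, that of Mir3470b in 590 and that of Mir690 in 18, so that the reads of these members may come from elsewhere.

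The host genes counted here differed less between the strains than the microRNA genes they hold. Each member was given 1 host, and members in snoRNA or scaRNA exons were left out. For FVB.CTL.F1 over C57.CTL.F1, 29 members had a host with enough counts. Of these members 18 were lower (18.4% of all genes) and 7 higher (6.56%) by at least 1 log2 unit, with a median of -1.35, whereas 2 hosts were lower and 0 higher, with a median of -0.17. Mir22 had a log2 ratio of -2.38 and its counted host Mir22hg one of 0.071. Tlcd2, whose exons also hold Mir22 but which was not counted as its host, was at -2.67. Mir27b was at -6.63 and 2010111I01Rik, an aminopeptidase gene, at 0.098. Mir8114 was at 3.62 and Glul at -1.03, in opposite directions. Among the host, snoRNA and scaRNA genes of the members left out, Scarna3b was at -2.34, Snhg20 at 1.31 and Snora36b at 1.71. The others measured there differed by less than 1 log2 unit. Reads of a host's own transcript can fall on an exonic member, and the ratios of these pairs show unequal counts over the member and the whole host gene. With DEHP in both strains, 13 of 28 members and 2 hosts were lower (19.6% of all genes), and 7 members and 4 hosts higher (11.3%).

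Neighbouring microRNA genes are often cut from 1 transcript. With a distance of at most 10 kb, 32 members lay in 20 clusters, 7 of which held at least 2 members. In the cluster of Mir182, Mir183 and Mir96, known from sensory and epithelial cells, Mir182 had 285, 331, 673, 37.3 and 63.7 counts and Mir183 had 199, 189, 287, 35 and 41.5. Both were lowest in FVB/N and highest in C57.D300.F2. Mir96 had 25, 41.9, 9.61, 0.393 and 1.41 counts and differed from its neighbours by a log2 ratio of -2.02 for C57.D300.F2 over C57.D300.F1, where Mir182 had 1.02 and Mir183 0.60. Mir191 lies beside Mir425, which had 37.6, 63.9, 67.1, 11.5 and 13.6 counts and the same order of strains. Mir25 had 36.5, 43.2, 70.2, 14.8 and 19.6 and Mir93, its neighbour in Mcm7, had 39.1, 57.8, 60.7, 86.2 and 85.1, so that Mir25 was lower in FVB/N and Mir93 higher. Without DEHP neither strain difference exceeded its model SD, and the Mir96 difference given above did not either.

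Of 25 listed X-linked testis microRNAs, which are known from germ cells, 22 were in the table with a valid estimate and 6 were members. They summed to 638, 881, 443, 33.8 and 25.8 counts, and all 5 that could be compared were lower in vehicle FVB/N than in vehicle C57BL/6J by at least 1 log2 unit (18.4% of all genes), 4 of them by at least 2 (9.04%). Mir871 had 397, 548, 256, 5.18 and 4.52 counts and Mir741 had 108, 169, 6.52, 0 and 0.766. The highest value of both was in C57.D300.F1, and Mir741 was low in C57.D300.F2 as well as in FVB/N. Mir470 had 64.8, 67.3, 109, 21.7 and 15.3, the smallest strain difference of the 5 compared members, at a log2 ratio of -1.54. Mir743b had 27.7, 46.3, 33.2, 1.43 and 1.71, Mir881 25, 27.5, 25.8, 5.46 and 3.56 and Mir465 16.3, 22.9, 12.5, 0 and 0. The sperm and spermatid markers given above were lower in both FVB/N conditions too, and their part in this was not tested.

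**Figure D3:**
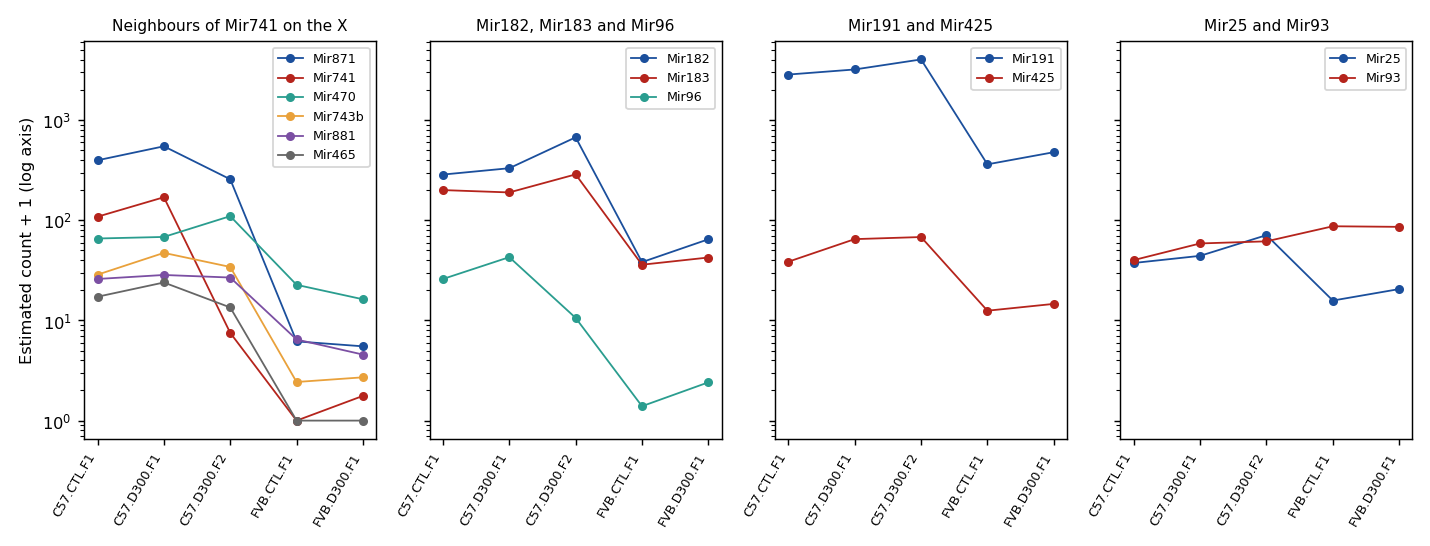
Count plus 1 (log axis) of neighbouring microRNA genes in the 5 conditions, with lines joining the values of 1 gene only. Mir182 and Mir183 are both highest in C57.D300.F2 and lower in FVB/N, while Mir96 is at 9.61 counts in C57.D300.F2 and 25 in C57.CTL.F1, and Mir93 is higher in FVB/N where Mir25 is lower. This Mir96 difference, and the strain differences of Mir25 and Mir93 without DEHP, did not exceed the model SD.

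Members with the same seed were summed to show how much RNA with that seed was counted, over the members with a mature sequence in RefSeq, so that Mir30b and Mir30d are not in these sums. The 3 let-7 members with the seed GAGGUAG summed to 71.7, 74.1, 170.5, 32.6 and 46.1 counts and the 3 miR-30 members with GUAAACA to 448, 356, 582, 148 and 196. Both sums were lower in FVB/N and highest in C57.D300.F2. Within the miR-30 group Mir30a held most of the count, and Mir30c-2, with 3.41, 6.8, 10.6, 11.8 and 20.5, was higher in FVB/N. Mir30c-2 reached 20 counts in FVB.D300.F1 alone. Mir148a and Mir148b, with CAGUGCA, summed to 924, 531, 804, 123 and 169. Mir27a and Mir27b, with UCACAGU, summed to 428, 329.6, 421, 5.73 and 8.32, and both members were lower in FVB/N. Mir25 and Mir92-1, with AUUGCAC, summed to 124, 105, 151, 23.4 and 33.3.

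Few of these genes differed with prenatal DEHP in C57BL/6J. Of 76 members, 2 were lower by at least 2 log2 units with DEHP (0.235% of all genes) and 0 were higher (0.0261%). At 1 log2 unit, 6 were lower (1.06%) and 4 higher (0.796%). The median was 0.054 against -0.02 over all genes. Both conditions came from the re-analysed libraries. The difference exceeded its model SD in 13 members (6.66% of all genes). Except for members higher by at least 2 log2 units, these counts were a larger share of the members than of all genes.

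The 2 members past the limit were Mir5112, named after its values were seen, and Mir122. Mir5112 had 33.5, 0.685, 0.128, 0 and 0 counts, a log2 ratio of -4.35 that rests on a count under 3 with DEHP. Mir122, the leading microRNA of hepatocytes, had 59.98, 11.9, 0.306, 0 and 0 counts and a ratio of -2.24, within its model SD. Mir192 had 2535 and 698 counts (-1.86), with a model SD of 2368 in C57.CTL.F1. The liver marker genes summed to 286245 and 252730.0 counts in these 2 conditions. Mir126b had 133 and 47.5 (-1.47), and Mir148a 888 and 489 (-0.86). Mir126a and Mir126b are transcribed from opposite strands of the same bases, the reads were mapped with a strand-specific setting, and whether the counting used strand is not given in the sources used here.

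Among members with at least 100 counts the highest ratios were those of Mir6236, from 3383 to 6937 counts (1.04), Mir3068, from 287 to 514 (0.84), and Mir6240, from 10289 to 17938 (0.80). Mir191 (0.17), Mir182 (0.21) and Mir22 (-0.29) differed by less than 1 log2 unit. The let-7 members summed to 71.7 and 74.1 counts.

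In FVB/N, nearly all members had a higher count with DEHP, by a small amount. Of 55 members, 0 passed 2 log2 units in either direction (0.706% of all genes were higher and 0.0136% lower). With the limit of 1, 9 were higher (1.81%) and 0 lower (0.496%). The log2 ratio was above 0 in 52 of the 55, with a median of 0.52 against -0.0046 over all genes, and from -0.48 to 1.96. The difference exceeded its model SD in 10 members, all of them higher (5.62% of all genes). The 9 tested genes of the left-out families had a median of 0.53 and the 112 tested snoRNA and scaRNA genes one of 0.61, with all 112 above 0. The snoRNA and scaRNA genes thus had a shift of similar size, and scaling the conditions to equal summed microRNA counts turned the members' median to -0.21.

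Mir6236 went from 16221 to 34245 counts (a log2 ratio of 1.08), Mir1843b from 164 to 351 (1.09) and Mir690, in an intron of Fgf12, from 62.6 to 129 (1.03). The highest ratio, 1.96, was that of Mir150, a lymphocyte microRNA, from 15.8 to 64.5 counts. The blood marker genes summed to 1219.5 and 4894 in these conditions, and the epididymal markers to 37482 and 91429. Their part in the microRNA counts was not tested. Mir191 was at 361 and 478 counts (0.40), Mir143 at 335 and 435 (0.38) and Mir22 at 379 and 471 (0.31). Among members with at least 100 counts none was lower with DEHP.

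The response to DEHP was then set against strain, as the FVB/N log2 ratio minus the C57BL/6J one. Of 87 members with at least 20 counts in any of the 4 first-generation conditions, 4 had a difference of at least 2 (0.971% of all genes) and 0 of -2 or less (0.174%). By at least 1, 20 were higher (3.96%) and 1 lower (2.48%), and the median was 0.47 against 0.03 over all genes and 0.45 over snoRNA and scaRNA genes, and the members' median was -0.21 with equal summed microRNA counts. The 4 were Mir5112 (4.35), Mir8114 (2.34), Mir122 (2.24) and Mir192 (2.02), the 1 below was Mir7210 (-1.35), named after its values were seen, and Mir5112 and Mir122 were listed at 0 in both FVB/N conditions. For those 2 the difference is therefore the C57BL/6J ratio alone. Of the 44 members with at least 20 counts in both strains, 24 were higher with DEHP in both (21.6% of the 13977 genes with that minimum), 18 were lower in C57BL/6J and higher in FVB/N (26.1%), 2 were higher in C57BL/6J and lower in FVB/N (25.1%), and 0 were lower in both (27.2%). Mir148a, at -0.86 in C57BL/6J and 0.44 in FVB/N, and Mir5099, at -0.80 and 0.39, were among the 18.

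**Figure D4:**
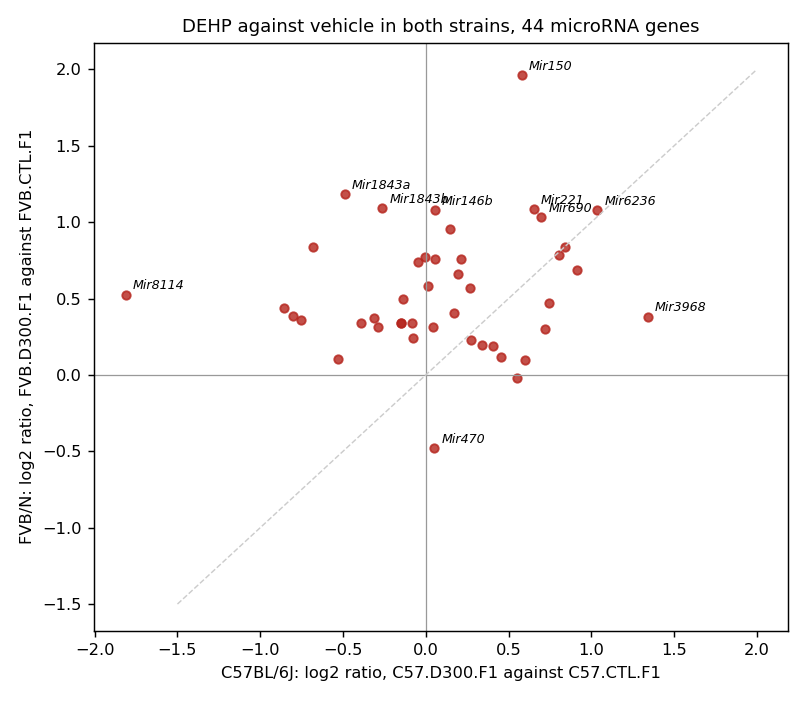
Log2 ratio of DEHP to vehicle in C57BL/6J (horizontal) against FVB/N (vertical) for the 44 members with at least 20 counts in both strains, 1 point for each gene. All but 2 points lie above 0 on the FVB/N axis, while 18 lie below 0 on the C57BL/6J axis. With equal summed microRNA counts the FVB/N median over 55 members was -0.21.

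C57.D300.F2 held the highest of the 5 values of 41 members, a number with no share of all genes beside it. Against C57.CTL.F1, 2 of 87 members were higher by at least 2 log2 units (0.481% of all genes) and 8 lower (3.81%). At 1 log2 unit, 24 were higher (2.97%) and 12 lower (10.6%). The median was 0.46 against -0.057 over all genes and 0.037 over the snoRNA and scaRNA genes. Against C57.D300.F1, 1 of 84 was higher (0.314%) and 5 lower (3.43%) by at least 2, and 16 were higher (2.01%) and 7 lower (8.5%) by at least 1, with a median of 0.33 against -0.054. Both medians turned below 0, to -0.075 and -0.24, with equal summed microRNA counts. The split of higher to lower members past 2 log2 units also moved with scaling. Against C57.CTL.F1 it was 8 to 6 with equal total counts, 5 to 6 with the upper quartile and 1 to 10 with equal summed microRNA counts. Against C57.D300.F1 it was 2 to 3 with equal total counts and with the upper quartile, and 0 to 5 with equal summed microRNA counts. The 2 comparisons share C57.D300.F2, and both cross the library sets. The difference exceeded its model SD in 31 members against C57.CTL.F1 (27.5% of all genes) and in 29 against C57.D300.F1 (22.8%).

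Mir184, an epithelial microRNA, was higher against both, with 5.72, 8.75, 43.5, 3.97 and 3.55 counts and log2 ratios of 2.73 against C57.CTL.F1 and 2.19 against C57.D300.F1. Mir1950 (2.09 against C57.CTL.F1, 5.6, 10.05, 27, 13 and 13.6 counts), named after its values were seen, was the other one past 2 log2 units. Mir184 and Mir1950 reached 20 counts in C57.D300.F2 alone, so that both had to be lower elsewhere. Among members with a mean of at least 20 counts, 0 were higher by at least 2 log2 units in either comparison. Among members with at least 100 counts, Mir690 (1.90), Mir127 (1.62) and Mir5100 (1.37) had the highest ratios to C57.CTL.F1. Mir690 had 229.7, 373, 858, 62.6 and 129 counts and Mir5100 had 163, 273, 421, 120.0 and 167. Mir127, of the imprinted Dlk1-Dio3 region whose microRNAs are expressed from the maternal chromosome, had 59.5, 79.1, 185, 82.1 and 94 counts. All 3 were highest in C57.D300.F2. Among members with at least 100 counts, the highest ratios to C57.D300.F1 were those of Mir127 (1.21), Mir690 (1.20) and Mir30d (1.17).

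Mir192 (-4.75), Mir741 (-3.85) and Mir126b (-2.14) had the lowest ratios of C57.D300.F2 to C57.CTL.F1 among members with at least 100 counts. Mir122, Mir5112, Mir501, Mir8114 and Mir126a were the other 5 of the 8 lower by at least 2 log2 units, and of these Mir501, named after its values were seen, had 41, 31, 1.91, 1.15 and 1.32 counts. Mir741 (-4.50), Mir192 (-2.90) and Mir150 (-2.05) had the lowest ratios to C57.D300.F1, again among members with at least 100 counts. Mir150 had 473, 707, 170.5, 15.8 and 64.5 counts and Mir126b had 133, 47.5, 29.5, 2.36 and 3.58. The liver marker genes were at 9708 counts in C57.D300.F2, against 286245 in C57.CTL.F1, and the 2 liver microRNAs among the members, Mir122 and Mir192, at 93.3 against 2595.

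Lists of microRNAs known from a tissue showed how the members of each varied. The 22 members of the sperm and germ cell list summed to 7079, 6536, 7599, 1289 and 1684 counts. The 7 members of the epithelium and tract list (Mir205, Mir31, Mir184, Mir375, Mir182, Mir183 and Mir96) summed to 600.4, 667, 1213, 169.8 and 235, and the 2 muscle members, Mir143 and Mir145a, to 2945, 2371, 3263, 346 and 451. All 3 sums were lowest in FVB.CTL.F1, whereas the smooth muscle marker genes were lowest in C57.D300.F2, at 8310.5 counts. The 3 blood members, Mir142, Mir150 and Mir146b, summed to 550.5, 820.1, 257, 29.9 and 96.3 and the 2 liver members to 2595, 709.9, 93.3, 4.23 and 4.83.

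The 3 let-7 members, Mirlet7d, Mirlet7g and Mirlet7i, summed to 71.7, 74.1, 170.5, 32.6 and 46.1 counts, and the other let-7 genes did not reach the limit. Of the 15 listed genes of the clusters from Mir17 to Mir92, known for their part in cell growth, 3 were members (Mir92-1, Mir93 and Mir25) and summed to 163, 162, 212, 109.7 and 118. Of the 50 listed genes of the imprinted Dlk1-Dio3 region, 3 were members (Mir127, Mir411 and Mir541) and summed to 79.9, 104, 254, 99.7 and 111. Mir411 had 7.14, 7.94, 21.6, 0.629 and 1.41 counts and Mir541 had 13.3, 17.2, 48.3, 17 and 15.4. The 3 were all higher in C57.D300.F2 than in the vehicle condition by at least 1 log2 unit (2.97% of all genes), with a median of 1.62. Mir411 and Mir541 reached the limit in C57.D300.F2 alone, so that both had to be lower elsewhere, whereas Mir127 reached it in every condition. Of the 11 embryonic microRNA genes of the Mir290 and Mir302 clusters in the table with a valid estimate, 0 reached the limit.

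For FVB.CTL.F1 over C57.CTL.F1, 14 of 17 tested members of the sperm and germ cell list were lower by at least 1 log2 unit (18.4% of all genes) and 8 by at least 2 (9.04%), with a median of -1.76. The medians of the smaller lists were -3.56 for the X-linked testis genes, set by Mir743b at 1.43 counts in FVB/N, -4.82 for blood and -3.06 for muscle. For C57.D300.F2 over C57.CTL.F1, 4 of 7 members of the epithelium and tract list were higher by at least 1 log2 unit (2.97% of all genes) and 1, Mir96 at -1.29, was lower (10.6%), with a median of 1.24. Higher by as much were also 2 of 3 let-7 members, with a median of 1.35. Among these higher members, Mir184 and Mirlet7d reached the limit for members in C57.D300.F2 alone, so that both had to be lower elsewhere. Mir205 had 27.6, 28.7, 67.3, 28.4 and 48.7 counts, Mir31 had 26.9, 41.3, 71.7, 55 and 59 and Mir375 had 30.3, 27.4, 61.2, 9.71 and 16.9. All 3 of these were highest in C57.D300.F2, and the strains overlapped for Mir205 and Mir31 but not for Mir375.

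**Figure D5:**
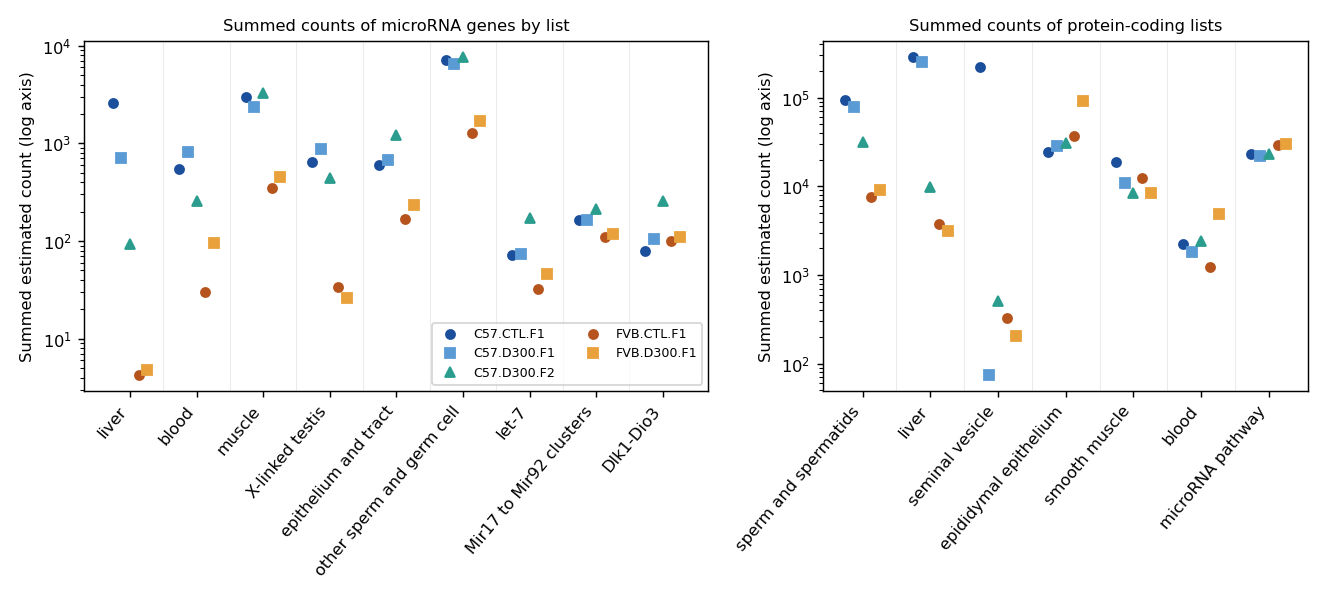
Summed counts (log axis) of the members of each list, 1 point for each of the 5 conditions. Without DEHP, the sperm and germ cell list holds 7079 counts in C57BL/6J and 1289 in FVB/N, and the liver list goes from 2595 to 4.23.

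The genes that make and use microRNAs, 30 listed genes from the nuclear and cytoplasmic cutting steps to the Argonaute proteins and the decay of target RNAs, summed to 22880.1, 22141, 23389, 29209.9 and 30334 counts. Drosha had 321, 362, 357, 515 and 440.4 counts, Dicer1 had 1084, 1010.5, 1018, 1265 and 1229 and Ago2, the Argonaute that cuts its target, had 487, 513, 599.9, 549.9 and 535. Of the 28 with enough counts in each comparison, 0 differed by at least 1 log2 unit for FVB.CTL.F1 over C57.CTL.F1, in either DEHP comparison or in either comparison of C57.D300.F2. Of all genes, 6.56% were higher and 18.4% lower by as much for FVB.CTL.F1 over C57.CTL.F1. With DEHP these shares were 0.796% and 1.06% in C57BL/6J, and 1.81% and 0.496% in FVB/N. For C57.D300.F2 they were 2.97% and 10.6% against C57.CTL.F1, and 2.01% and 8.5% against C57.D300.F1. For FVB.D300.F1 over C57.D300.F1, 1 of the 28 differed by as much (11.3% of all genes were higher and 19.6% lower). This was Srrt, which links the cap-binding complex to Drosha and was higher in FVB/N by 1.34. The summed count of the 30 genes was higher in both FVB/N conditions than in any C57BL/6J condition.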

How the data were processed

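Sperm RNA of 25 mice, 5 for each condition, had been sequenced by all-RNA-seq after TRIZOL extraction, ribosomal RNA removal and fragmentation. Per the paper's methods and the submitters' processing notes, the authors called bases with CASAVA 1.8.2, clipped the RA3 adapter, dropped reads under 18 bases, mapped with TopHat to mm10 (GRCm38) under a strand-specific library type (fr-secondstrand) and quantified with Cuffdiff, whose own options are not given in the sources used here. The deposited values are a signal made by the authors: 1 estimated fragment count for each gene and condition, pooled over 5 libraries and scaled between conditions, with its model variance. No column of other samples was present. Scripts in Python 3.11.15 (pandas 2.3.3, numpy 2.4.6, matplotlib 3.10.9) selected the members, added 1 to each count, took log2 ratios for genes whose higher compared count was at least 20 and counted those of at least 2 or 1. The scripts were tested on simulated data. Since the values were pooled, no test was made. Genes with a failed estimate (71) were left out. Gene positions and sequences came from RefSeq and the overlapping genes from GENCODE M21, both on GRCm38.

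Members named with values were the 15 of highest mean count, in each of 6 comparisons the 3 highest and 3 lowest ratios among those whose higher compared count was at least 100, members of tissue and family lists, and the genes next to the limit of 20. The members and lists were chosen with earlier results of these data known. Alternatives were other scalings, pseudocounts of 0.1 and 10, other count minimums, summing genes with identical mature sequences and, chosen after seeing the data, 7 more, among them a floor of 3 counts, the comparison within the 15 new libraries and the split of registry numbers at 1000.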

Additional observations from a re-analysis of the deposited data

How the results depend on the processing

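The values were pooled over 5 libraries before deposit, so leaving out 1 replicate at a time was not run, and depth per library and spread between mice are unknown. No paired analysis was possible because the columns carry no replicate. Of the summary values and alternatives run, 272 kept their direction and stayed within 1.5 times the main count or 0.5 log2 units of the main median, 61 moved and 4 changed sign. For single members, 1133 ratios kept their side of the limit, 70 no longer passed it and 0 changed sign. The median of all genes moved by over 0.1 log2 units under 3 scalings. With equal total counts it was 0.092 for C57.D300.F1 over C57.CTL.F1, 0.23 for C57.D300.F2 over C57.CTL.F1, 0.12 against C57.D300.F1, 0.14 for FVB.CTL.F1 over C57.CTL.F1 and -0.16 for strain by exposure. With the upper quartile it was 0.17, 0.13 and 0.15 for C57.D300.F2 over vehicle, over C57.D300.F1 and for the vehicle strains, and 0.080 for FVB.D300.F1 over C57.D300.F1. With equal summed microRNA counts it was -0.61, -0.64 and 0.90 for C57.D300.F2 over vehicle, over C57.D300.F1 and for the vehicle strains, -0.73 for strain by exposure, -0.74 for FVB.D300.F1 over FVB.CTL.F1 and 0.10 for FVB.D300.F1 over C57.D300.F1, so all genes moved with the members.

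With equal summed microRNA counts the members' median was -0.21 for FVB.D300.F1 over FVB.CTL.F1, -0.075 for C57.D300.F2 over C57.CTL.F1, -0.24 against C57.D300.F1, -0.36 for FVB.CTL.F1 over C57.CTL.F1 and -0.21 for strain by exposure. By construction this scaling follows the few genes that hold most microRNA counts. It gave 1 higher member for C57.D300.F2 over C57.CTL.F1, 0 against C57.D300.F1, 13 for FVB.CTL.F1 over C57.CTL.F1 and 2 for strain by exposure. For C57.D300.F2, equal total counts gave 8 higher against C57.CTL.F1, and 2 higher and 3 lower against C57.D300.F1, and the upper quartile 5, 2 and 3. The cause was not tested.

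With a limit of 1 log2 unit, which passes more genes by construction, there were 4 higher and 6 lower for C57.D300.F1 over C57.CTL.F1, 9 higher for FVB.D300.F1 over FVB.CTL.F1, 24 higher for C57.D300.F2 over C57.CTL.F1, 16 higher against C57.D300.F1, 15 higher and 44 lower for FVB.CTL.F1 over C57.CTL.F1, 20 higher for FVB.D300.F1 over C57.D300.F1, and 20 higher and 1 lower for strain by exposure. Requiring a difference beyond the model SD left 1 lower for C57.D300.F1 over C57.CTL.F1, 4 and 3 lower for C57.D300.F2 over vehicle and over C57.D300.F1, 2 higher and 18 lower for FVB.CTL.F1 over C57.CTL.F1 and 3 higher for FVB.D300.F1 over C57.D300.F1.

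A pseudocount of 10, which shrinks the ratios of low counts, left 1 lower for C57.D300.F1 over C57.CTL.F1, 0 higher and 5 lower for C57.D300.F2 over C57.CTL.F1, 0 higher and 2 lower against C57.D300.F1, 18 lower for FVB.CTL.F1 over C57.CTL.F1, 13 lower for FVB.D300.F1 over C57.D300.F1 and 1 higher for strain by exposure. At least 100 counts, which tests fewer genes, left 0 lower, 0 higher and 3 lower, 0 higher and 3 lower, 3 higher and 12 lower, 9 lower, and 2 higher in the same comparisons. Members with a mean of at least 20 counts gave 0 lower for C57.D300.F1 over C57.CTL.F1, 0 higher and 4 lower for C57.D300.F2 over C57.CTL.F1, 0 higher and 3 lower against C57.D300.F1, and 2 higher for strain by exposure. A pseudocount of 0.1, and likewise a floor of 3, gave 1 higher for FVB.D300.F1 over FVB.CTL.F1 and 2 for C57.D300.F2 over C57.D300.F1. No minimum gave 1 higher for C57.D300.F1 over C57.CTL.F1. Within the new libraries, 3 were higher for FVB.CTL.F1 over C57.D300.F2. Without the 100 genes of highest mean count, all microRNA genes held 0.473, 0.482, 0.678, 0.198 and 0.286% of counts in the 5 conditions.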
